A study of Mus musculus with 8 samples.

Results

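Voltage-gated calcium and sodium channel genes were taken from a table of FPKM values of the mouse pineal gland by their class and name. They are the protein-coding rows whose names begin with Cacna, Cacnb or Cacng and a number, with Cacna2d, or with Scn, a number and a or b. In all, 40 of 21980 protein-coding genes met this rule, 26 of them genes of calcium channels and 14 of sodium channels. FPKM is the number of sequenced fragments scaled to the length of the transcript and to the total of the library, so levels of different genes can be set side by side per length. Every level below is in FPKM and every log2 fold change is a difference of group means of log2(FPKM + 0.1), 5xFAD over wild type.

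The 8 libraries came from glands of male mice killed at 5 months of age, at zeitgeber time 0.5 h, that is soon after lights on, and each library held the pooled glands of 5 to 7 mice. Wild type C57BL/6 mice, bought from Koatech, gave the libraries Normal-11, Normal-21, Normal-22 and Normal-23. 5xFAD mice on a congenic C57BL/6 background, from The Jackson Laboratory, gave 5xFAD-1 and 5xFAD-2, then 5xFAD-3 and 5xFAD-21. These mice carry mutant human transgenes of familial Alzheimer disease, APP among them, under the Thy1 promoter, which drives expression mainly in neurons, and accumulate amyloid beta in the brain. The supplier changed with the genotype, so supplier and genotype cannot be told apart. The human transgenes have no entry in the mouse annotation, so the values do not check the genotype. Values of a group are listed in the order of the library names above. The labels call the libraries biological replicates.

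A voltage-gated calcium channel is built around an alpha1 subunit, which forms the pore and senses voltage, and most types add a beta subunit inside the cell and an alpha2delta subunit outside it. L-type channels (Cav1) give lasting currents, Cav2 channels serve transmitter release at most synapses, and T-type channels (Cav3) open near the resting potential and close quickly. Sodium channels have a pore subunit of the same plan and small beta subunits. Pinealocytes descend from a photoreceptor-like lineage and keep synaptic ribbons, and in the retina the ribbon synapse of photoreceptors works with Cav1.4 and the alpha2delta-4 subunit.

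Members of this family resemble each other in sequence, and a read from a stretch that is the same in 2 genes cannot be given to one of them. Among members averaging at least 1 FPKM, only Cacna1g parted the groups. The stretch where Cacna1g is most like the other T-type genes is therefore shown. It codes for the linker and helix that follow the voltage sensor of the second repeat of the channel, and capitals mark bases that differ from Cacna1g. The sequences are from GENCODE M21 transcripts on GRCm38, 5′ to 3′ of the coding strand.
Cacna1g: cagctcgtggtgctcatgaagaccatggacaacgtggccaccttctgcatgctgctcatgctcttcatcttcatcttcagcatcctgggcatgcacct
Cacna1h: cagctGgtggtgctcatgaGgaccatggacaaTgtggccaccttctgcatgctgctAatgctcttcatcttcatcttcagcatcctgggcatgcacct
Cacna1i: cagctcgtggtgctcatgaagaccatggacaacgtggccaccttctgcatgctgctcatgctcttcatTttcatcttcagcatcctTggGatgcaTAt
Each spans 98 bases over a pair of neighbouring coding exons. They lie at chr11:94443175-94443254 in exon 11 and chr11:94443062-94443079 in exon 12 of Cacna1g (minus strand), at chr17:25388562-25388641 and chr17:25388145-25388162 in exons 12 and 13 of Cacna1h (minus strand), and at chr15:80369688-80369767 and chr15:80370044-80370061 in exons 12 and 13 of Cacna1i (plus strand). Cacna1h differed from Cacna1g at 4 of these bases and Cacna1i at 5. The longest unbroken run shared over the whole coding sequence was 68 bases between Cacna1g and Cacna1i and 41 bases between Cacna1g and Cacna1h, under the read length of 100.

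Over all 780 pairs of members, 6 shared a coding run of at least 100 bases, and 29 members shared no run of 50 bases with any other member. The longest run, 188 bases, joined Scn1a (chr2:66273486-66273673, minus strand) and Scn2a1 (chr2:65764023-65764210, plus strand), both in exon 27. Levels of Scn1a, Scn2a1, Scn3a and Scn9a, sodium channel genes of the same cluster on chromosome 2, are therefore uncertain among themselves. Exons of other genes overlapped exons of 7 of the 21 tested members, all on the opposite strand. Whether strand was used in the counting is not given in the sources used here. The overlap passed 5% of the exonic bases in Cacnb4 among the tested members, where A430018G15Rik covered 16.0% and was listed at 1.92 to 3.03 FPKM, so Cacnb4 is uncertain too.

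Pinealocyte transcripts were abundant in both groups. The 10 pinealocyte markers summed to 1740 to 3682 FPKM in wild type and to 2471 to 3952 in the 5xFAD group. At an unadjusted p under 0.05 by limma, 3 of them were higher in 5xFAD and 0 lower, beside 4.57 and 3.33% of all genes tested. Of the 10 markers, 4 had a log2 fold change below 0, and their median was 0.18. Libraries also differed in other tissue. The summed markers of fibroblasts ran from 201 FPKM in 5xFAD-21 to 3477 in Normal-11. Brown fat markers summed to 725 FPKM in 5xFAD-2 and to at most 6.70 in the other libraries. Xist, which is made in female cells, stood at 13.3 FPKM in Normal-22 and at most at 0.0404 in the other libraries, beside genes of the Y chromosome in all 8. Gad1, of inhibitory neurons, stood at 6.21 FPKM in 5xFAD-3 and at most at 0.580 in the others. For the members that Normal-22 moved most, the value without it is given beside the result. A single fragment of a transcript 2000 nt long was worth 0.0279 to 0.0455 FPKM, depending on the library. In a gland as a whole, fewer cells of a type and less RNA per cell cannot be told apart.

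Of the 40 members, 21 averaged 1 FPKM or more over all libraries and were tested, 15 calcium and 6 sodium channel genes, and all 21 were above 0 in every library. The alpha2delta gene Cacna2d4 was the highest, with a mean of 50.8 FPKM, and 8 members had a mean of at least 10 FPKM. These were all 4 alpha2delta genes, the T-type pore genes Cacna1g and Cacna1h, the L-type pore gene Cacna1f and the beta gene Cacnb2. No sodium channel gene reached that level.

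**Figure D1:**
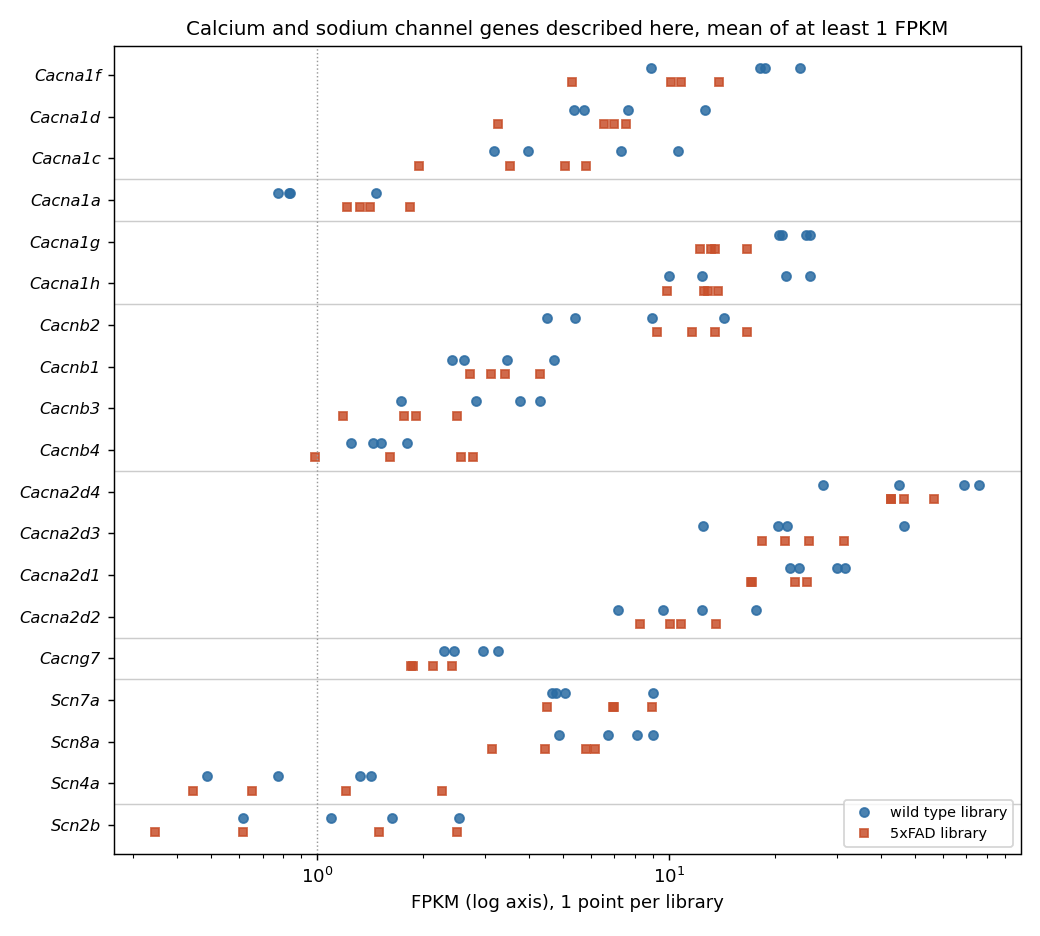
FPKM of 19 of the 21 members with a mean of at least 1 FPKM, on a log axis, with 1 point per library and the groups in separate colours. Cacna2d4 lies highest, between 27.3 and 76.2 FPKM, and Cacna1g is the gene whose 5xFAD points, at 12.2 to 16.6, all lie left of the wild type points, at 20.5 to 25.2.

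Between the groups, 0 of the 21 members passed an adjusted p of 0.05 from limma, where 5 of 13094 protein-coding genes did (0.0382%). At an unadjusted p under 0.05 from limma, 1 member was lower in 5xFAD (4.76% of the 21, beside 3.33% of all genes tested) and 0 were higher (4.57% of all). The shares of all genes lower and higher were 1.68 and 6.72% with equal protein-coding totals and 6.93 and 5.28% after each library's unread bases entered the fit. The member was Cacna1g. It was also the 1 member of the 21 with every 5xFAD library below every wild type library (2.23% of all genes), and 0 lay above in this way (2.11%). A log2 fold change below 0 was found for 13 of 21 members, or 61.9%, beside 51.3% of all genes. Their median was −0.34, beside −0.007 over all genes tested, and it was −0.14 without Normal-22 and −0.12 with unread bases as a term. The 1 gene found is a share of the members close to the background, and Cacna1g was known to be lower in every 5xFAD library when the family was chosen.

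**Figure D2:**
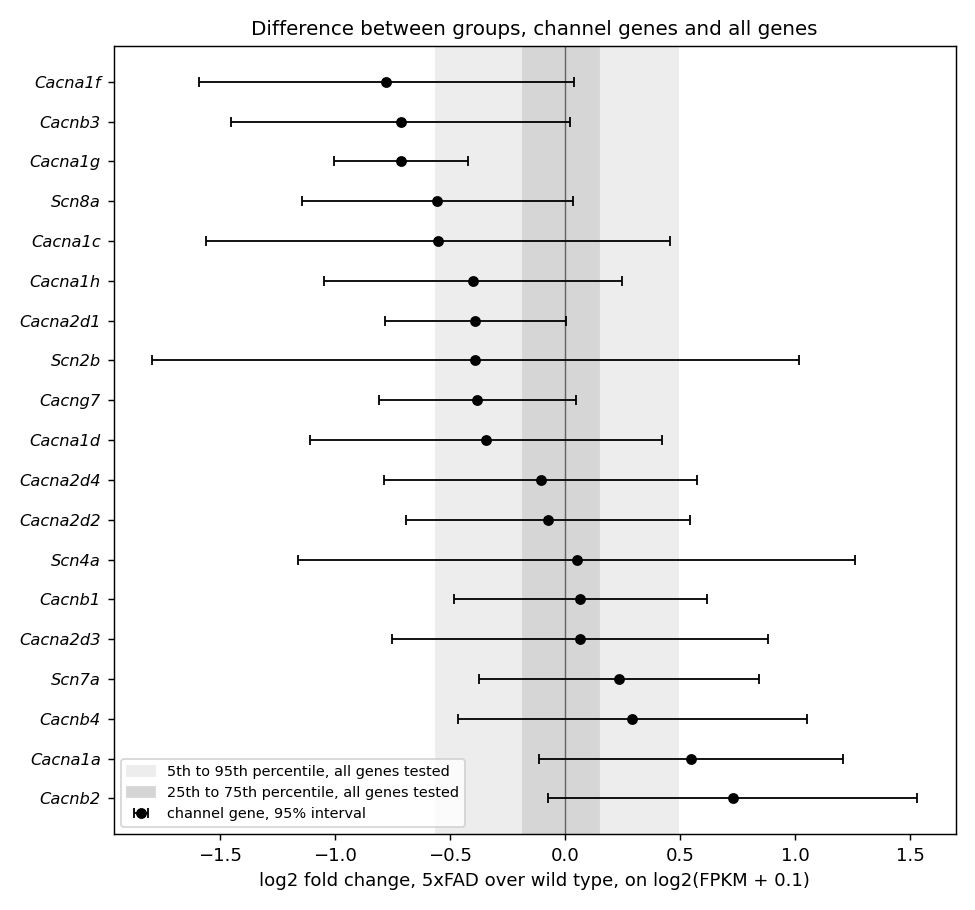
Log2 fold change of 19 of the 21 tested members, 5xFAD over wild type, with its 95% interval from limma (points and bars), over bands that hold the middle part of all protein-coding genes tested. The interval of Cacna1g, −1.0 to −0.42, lies below 0, and those of the other 18 members drawn include 0.

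Cacna1g encodes Cav3.1, a T-type pore subunit, on chr11:94408391-94474198 of GRCm38 (minus strand, ENSMUSG00000020866.17). It had 24.6, 20.9, 25.2 and 20.5 FPKM in the wild type libraries and 16.6, 13.1, 12.2 and 13.5 FPKM in the 5xFAD libraries. The highest 5xFAD library lay below the lowest wild type library, and the values of each group lay close together. The means were 22.8 ± 2.43 FPKM (SD, n = 4) and 13.9 ± 1.91 FPKM (SD, n = 4), so the 5xFAD mean was 60.9% of the wild type mean. By limma the log2 fold change was −0.71 (standard error, SE, 0.13), with an unadjusted p of 0.000369 and an adjusted p of 0.315, which does not pass. Cacna1g took place 12 by p among all 13094 genes. Its lower level in every 5xFAD library was known when the family was chosen, so this p and place are not independent support. Because the groups did not overlap, the exact permutation test over libraries could give only its smallest two-sided value, 0.0286, and adds nothing to that order. About 1428 to 2673 fragments per library stood behind these values on the longest transcript.

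The study's read statistics part the libraries into sets of low and high share of unread bases. The log2 fold change of Cacna1g was −0.82 among 5xFAD-1, 5xFAD-2, 5xFAD-3 and Normal-11 and −0.70 among the other libraries. Each set held 1 library of one group, and since the groups did not overlap, any subset had to give a value below 0, so these values show the size alone. Without Normal-22 and 5xFAD-3 together it was −0.61. With the mean level of pinealocyte markers as a term it was −0.80, and with that of smooth muscle and pericyte markers −0.74. Each of these fits had an adjusted p above 0.05, from 0.160 to 0.991 by limma.

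Cacna1h, which encodes the T-type subunit Cav3.2, had 10.03, 12.4, 25.2 and 21.5 FPKM in wild type and 12.6, 9.89, 12.9 and 13.8 FPKM in the 5xFAD libraries. Normal-22 and Normal-23 stood apart from the other 6 libraries, which lay between 9.89 and 13.8, and the groups overlapped. The log2 fold change was −0.40 (SE 0.29, limma adjusted p = 0.728), and −0.19 without Normal-22. Cacna1i, for Cav3.3, was under the limit for testing at 0.288 to 0.570 FPKM. Cacna1g and Cacna1h thus made nearly all T-type transcript in the gland, per length. Cacna1g held 47.6 to 70.4% of the T-type sum and Cacna1h 28.8 to 50.6%, and both ranges are over all 8 libraries. The sum of the 3 genes came to 40.5 ± 7.95 FPKM in wild type and 26.6 ± 2.76 FPKM in the 5xFAD group (SD, n = 4 libraries each). Every 5xFAD sum, at most 29.7, lay under the lowest wild type sum of 33.8. Cacna1g is counted in these sums and was known to be lower when the family was chosen. The order of the sums is therefore not independent support.

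Cacna1f, for the L-type subunit Cav1.4 of photoreceptor synapses, was the highest Cav1 gene in 7 of 8 libraries, Normal-11 being the exception. It had 8.87, 18.1, 18.7 and 23.5 FPKM in wild type and 10.1, 5.29, 10.9 and 13.8 FPKM in the 5xFAD libraries. Normal-11 fell among the 5xFAD libraries, and the other wild type libraries lay above all 5xFAD libraries. The means were 17.3 ± 6.12 and 10.02 ± 3.55 FPKM (SD, n = 4 each), a log2 fold change of −0.78 (SE 0.36, limma adjusted p = 0.632), the farthest from 0 of any tested member. With single libraries left out it ran from −1.07 without Normal-11 to −0.50 without 5xFAD-2, and the unadjusted p was under 0.05 without Normal-11 or 5xFAD-21 alone. It was −0.31 with unread bases as a term, −0.088 within the set of low unread bases and −0.53 within the other set.

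Cacna1d, for the L-type subunit Cav1.3, which opens at more negative voltages, had 5.75, 5.38, 12.7 and 7.62 FPKM in wild type and 6.54, 3.27, 6.98 and 7.57 FPKM in the 5xFAD libraries. Its groups overlapped, with a log2 fold change of −0.34 (limma adjusted p = 0.792), which was −0.089 without Normal-22 and −0.074 without 5xFAD-2. Cacna1c, for Cav1.2 of smooth and heart muscle, had 10.6, 7.29, 3.17 and 3.99 FPKM in wild type and 5.08, 3.53, 5.82 and 1.95 FPKM in the 5xFAD libraries. Normal-11 was highest and 5xFAD-21 lowest, which was also the order of the extremes of the 9 smooth muscle and pericyte markers, with sums of 304 FPKM in Normal-11 and 83.1 FPKM in 5xFAD-21. All 9 of these markers had a log2 fold change below 0, and their sums spanned 110 to 304 FPKM in wild type and 83.1 to 177 in the 5xFAD group. The log2 fold change of Cacna1c was −0.55 (limma adjusted p = 0.751), and −0.044 in a fit with these markers as a term. It was −0.15 with pinealocyte markers as a term, −0.25 without Normal-11 and −1.17 with unread bases as a term. By mean log2 deviation, the Schwann cell, microglia, endothelium, fibroblast, bone and bone marrow neutrophil lists were also highest in Normal-11 and lowest in 5xFAD-21. The match of extremes was thus not particular to the smooth muscle list, and which cells gave Cacna1c was not tested.

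Cacna1s, the L-type pore gene of skeletal muscle, was under the limit for testing, with 0.158, 0.418, 0.462 and 0.246 FPKM in wild type and 0.739, 0.482, 0.487 and 0.492 FPKM in the 5xFAD libraries. Every 5xFAD library lay above every wild type library and the nearest ones stood at 0.482 and 0.462 FPKM. The 7 skeletal muscle markers were at most 2.29 FPKM in any library and summed to 2.16 to 9.79 in wild type and 1.55 to 7.80 in the 5xFAD group. The antisense gene Gm37759 covered 19.98% of the exonic bases of Cacna1s and was listed at no more than 0.0349 FPKM.

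**Figure D3:**
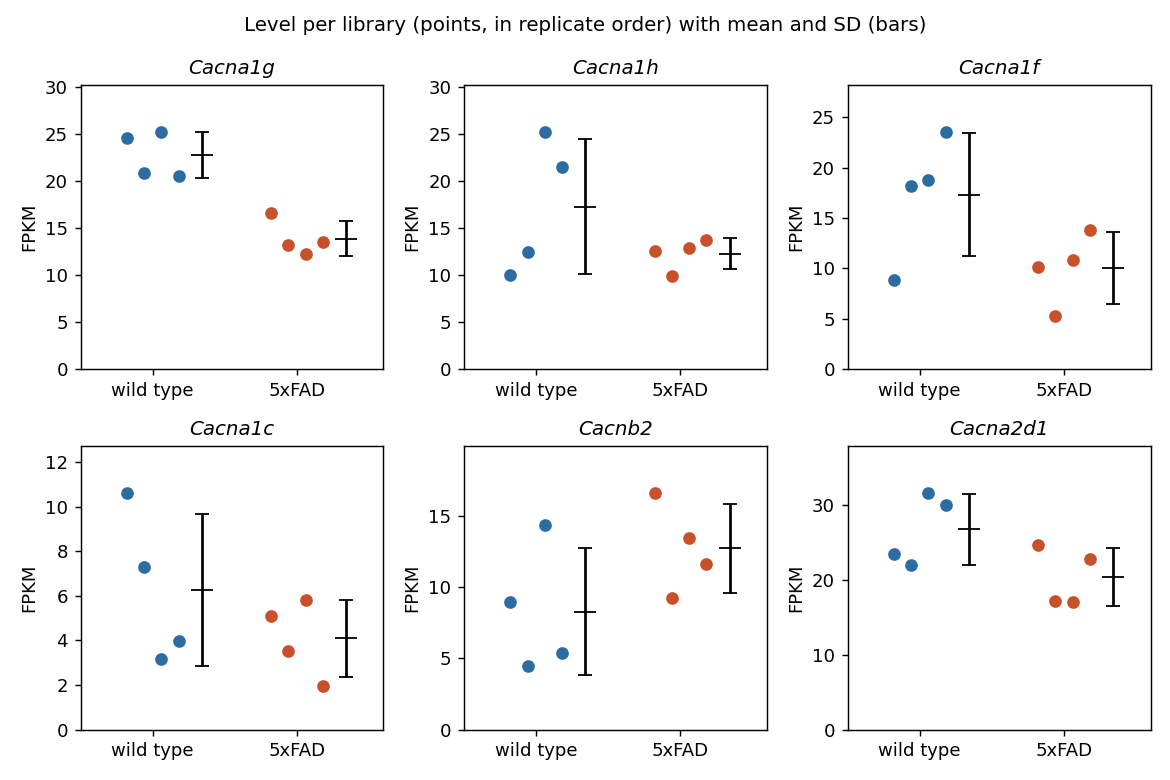
FPKM of selected members in each library, by group, with the mean and SD of 4 libraries. The 5xFAD values of Cacna1g, 12.2 to 16.6, stay under the wild type values, and those of the other tested genes shown overlap the wild type values.

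The Cav2 genes, the main presynaptic calcium channels of the brain, were low. Cacna1a, for the P/Q-type channel, had 0.834, 0.839, 1.47 and 0.775 FPKM in wild type and 1.32, 1.22, 1.84 and 1.42 FPKM in the 5xFAD libraries, a log2 fold change of 0.55 (SE 0.29, limma adjusted p = 0.656). Normal-22 was the wild type library that lay among the 5xFAD libraries, and without it the log2 fold change was 0.74, with an unadjusted p of 0.0247 and an adjusted p of 0.223 by limma. Cacna1b, for the N-type channel, ran from 0.0890 to 0.756 FPKM, highest in 5xFAD-3.

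Cacna1e, for the R-type channel, had 0.517, 0.781, 0.661 and 0.707 FPKM in wild type and 0.495, 0.104, 0.506 and 0.489 FPKM in the 5xFAD libraries. The groups did not overlap, but 3 of the 5xFAD libraries lay just under the lowest wild type library. Its mean was under the limit for testing. Cacna1e and Cacna1s were singled out here after their values were seen. Without the limit on the mean, 2 of 40 members, Cacna1e and Cacna1g, lay below in every 5xFAD library (2.07% of 18491 genes) and 1, Cacna1s, above (2.04%). In that fit 3 members were lower at an unadjusted p under 0.05 by limma (3.17% of all), Cacng2, Cacna1g and Cacna2d1, and 0 higher (4.28%). As a share of the Cav2 sum, Cacna1e held 26.8 to 44.99% in wild type and 6.80 to 22.5% in the 5xFAD group, with 6.80% in 5xFAD-2. That sum was low, with means of 1.84 FPKM in wild type and 2.25 in the 5xFAD group. The share restates values already singled out, so it is not a further result.

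All 4 alpha2delta genes were well measured, and together they summed to 118 ± 42.4 FPKM in wild type and 102 ± 15.6 FPKM in the 5xFAD group (SD, n = 4 libraries each). Cacna2d4, the photoreceptor subunit, had 27.3, 45.2, 76.2 and 69.1 FPKM in wild type and 56.6, 42.8, 42.8 and 46.6 FPKM in the 5xFAD libraries. The wild type values spanned the 5xFAD values on both sides, with a log2 fold change of −0.11 (95% interval −0.79 to 0.57). Cacna2d1, a target of gabapentin, had 23.5, 22.1, 31.7 and 30.1 FPKM in wild type and 24.7, 17.2, 17.1 and 22.9 FPKM in the 5xFAD libraries. Normal-22 and Normal-23 lay above all 5xFAD libraries and the other wild type libraries among them, and the log2 fold change was −0.39 (SE 0.17, limma adjusted p = 0.632), or −0.31 without Normal-22. Of the members beside Cacna1g it had the lowest unadjusted p, 0.0509 by limma.

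Cacna2d3 ran from 12.5 to 46.5 FPKM in wild type and from 18.3 to 31.5 in 5xFAD, a log2 fold change of 0.06. Cacna2d2, which also binds gabapentin, ran from 7.14 to 17.6 and from 8.25 to 13.6 FPKM, a log2 fold change of −0.08. For both, the wild type range held the whole 5xFAD range, and Normal-22 was the highest library. Without Normal-22 the log2 fold change was 0.41 for Cacna2d3, 0.15 for Cacna2d2 and 0.090 for Cacna2d4.

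Among the beta subunits, which bring the pore to the membrane and set its gating, Cacnb2 was the highest. It had 8.93, 4.49, 14.3 and 5.40 FPKM in wild type and 16.6, 9.22, 13.5 and 11.6 FPKM in the 5xFAD libraries. Normal-22 lay within the 5xFAD range and the other 3 wild type libraries below it. The means were 8.29 ± 4.47 and 12.7 ± 3.12 FPKM (SD, n = 4 each), a log2 fold change of 0.73 (SE 0.35, limma adjusted p = 0.639). Without Normal-22 it was 1.04, with an adjusted p of 0.139, the lowest that any member other than Cacna1g had in any of the fits tried.

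Cacnb3 went the other way, with 3.76, 4.30, 1.74 and 2.83 FPKM in wild type and 1.91, 1.77, 2.49 and 1.19 FPKM in the 5xFAD libraries. Normal-22 again was the wild type library among the 5xFAD libraries, and the log2 fold change was −0.72 (SE 0.32, limma adjusted p = 0.632). Without Normal-22 it was −0.97 (adjusted p = 0.157), without Normal-22 and 5xFAD-3 together −1.12 (adjusted p = 0.164), and without 5xFAD-21 −0.53. Cacnb1 ran from 2.42 to 4.72 FPKM in wild type and from 2.71 to 4.29 in 5xFAD, and Cacnb4 from 1.25 to 1.80 and from 0.985 to 2.78. Cacnb2 held 35.5 to 68.4% of the beta sum in wild type and 59.1 to 73.4% in the 5xFAD group, and these ranges overlapped through Normal-22.

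The Cacng genes were low, with a sum of 4.81 FPKM in wild type and 3.32 FPKM in the 5xFAD group over 8 genes. Cacng7, whose product is one of the AMPA receptor regulators known as TARPs, was the 1 of them that was tested. It had 2.95, 3.27, 2.29 and 2.45 FPKM in wild type and 1.85, 2.42, 1.87 and 2.14 FPKM in the 5xFAD libraries. Only 5xFAD-2 reached into the wild type range, and the log2 fold change was −0.38 (SE 0.19, limma adjusted p = 0.642).

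Cacng2, which encodes stargazin, a TARP, had 0.346, 1.18, 0.239 and 1.31 FPKM in wild type and 0.126, 0.132, 0.292 and 0.0276 FPKM in the 5xFAD libraries. The value of 5xFAD-3 lay above that of Normal-22, so the groups overlapped, and Normal-21 and Normal-23 made most of the difference in the means. Cacng4, another TARP, ran from 0.723 to 1.67 FPKM in wild type and from 0.571 to 1.21 in 5xFAD. Cacng1 and Cacng6, gamma subunits of muscle channels, were each listed above 0 in 1 library, and Cacng3, Cacng5 and Cacng8 stayed at or below 0.266 FPKM.

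Pore genes of sodium channels that were tested included Scn8a, Scn7a and Scn4a. Scn8a, for Nav1.6 of neurons, had 4.87, 6.73, 9.0 and 8.11 FPKM in wild type and 4.45, 3.13, 6.15 and 5.79 FPKM in the 5xFAD libraries. Normal-11 lay among the 5xFAD libraries and the other wild type libraries above them, with a log2 fold change of −0.56 (SE 0.26, limma adjusted p = 0.632). With single libraries left out it ran from −0.73 without Normal-11 to −0.37 without 5xFAD-2, and the unadjusted p was under 0.05 without Normal-11, 5xFAD-3 or 5xFAD-21 alone. It was −0.29 with unread bases as a term and −0.14 within the set of low unread bases.

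Scn7a, for a sodium-sensing relative of the channels found in glia, had 8.99, 4.78, 5.06 and 4.64 FPKM in wild type and 8.95, 6.97, 6.94 and 4.49 FPKM in the 5xFAD libraries. The groups overlapped, with a log2 fold change of 0.23. Scn4a, of skeletal muscle, ran from 0.443 to 2.26 FPKM, and 5xFAD libraries held both ends.

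Other pore genes of brain sodium channels were near the limit or far below it. Scn2a1 ran from 0.393 to 1.35 FPKM and Scn3a from 0.0560 to 0.907. Scn1a, the main channel gene of fast inhibitory neurons, stood at 0.899 FPKM in 5xFAD-3 and at 0 to 0.0705 in the other 7 libraries. Scn9a, a gene of sensory neurons, stood at 0.167 FPKM in 5xFAD-3 and at most at 0.0484 elsewhere. Cacng3 followed with 0.247 FPKM in 5xFAD-3 and at most 0.0208 elsewhere. In the same library the neuron markers Gad1, Gad2 and Nefl stood at 6.21, 1.35 and 2.13 FPKM, and at most at 0.580, 0.0681 and 0.509 FPKM in the others. Of the 19 members under the limit for testing, 9 were highest in 5xFAD-3, and the share of all low genes highest there is not given. Rbfox3, a marker of most neurons, was at most 0.257 FPKM in any library, and Pou4f1 of the nearby habenula at most 0.0476. Other markers on these lists were high in every library. Snap25, at 246 to 692 FPKM, and Syt1, at 18.8 to 85.2, were highest in Normal-22, and Slc17a6, at 33.6 to 118, in 5xFAD-2. Chrnb4, on the habenula list, ran from 94.9 to 314 FPKM. Which cells gave these transcripts was not tested.

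**Figure D4:**
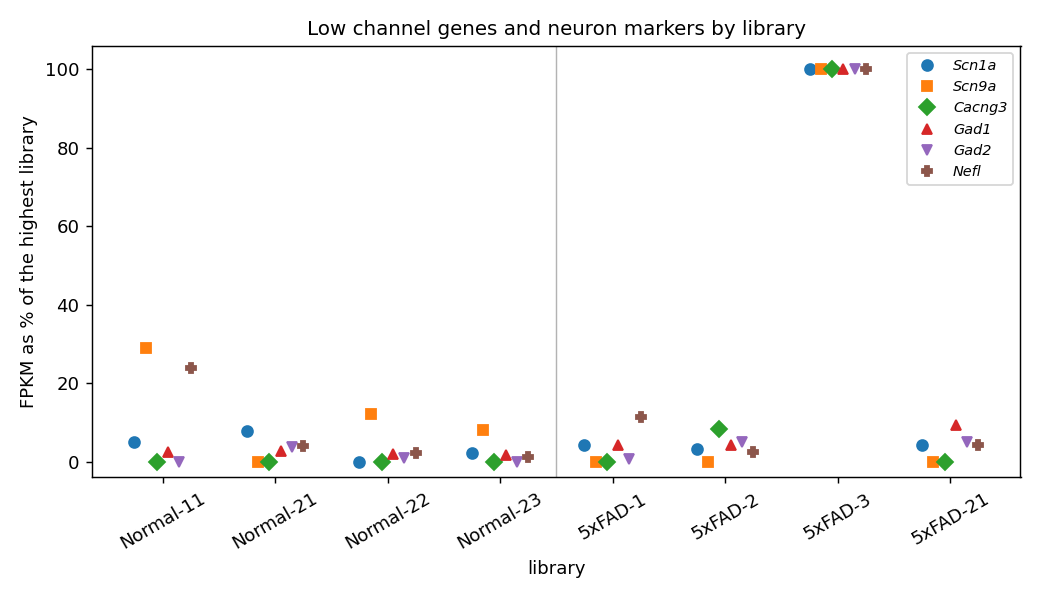
FPKM of the low members Scn1a, Scn9a and Cacng3 and of the neuron markers Gad1, Gad2 and Nefl, each as % of its highest library, over the 8 libraries. All 6 have their highest value, 100%, in 5xFAD-3, and the next highest library is Normal-11 for Scn9a, at 29.0%, and for Nefl, at 23.9%. The neuron markers Snap25, Syt1, Slc17a7, Slc17a6 and Nefh, not drawn, are highest in other libraries.

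Scn10a and Scn11a, genes of pain-sensing neurons, were at most 0.0376 FPKM. Among the beta subunit genes, Scn2b ran from 0.345 to 2.53 FPKM, with Normal-11 highest and 5xFAD-21 lowest, as for the smooth muscle and fibroblast markers. It was nearly as high in 5xFAD-3, at 2.49 FPKM. There the mean log2 deviations of the smooth muscle and fibroblast markers were −0.01 and −0.17. Those of the neuron and oligodendrocyte markers, at 1.39 and 1.41, were their highest. Which cells gave Scn2b was not tested. Scn3b, at 0.273 to 0.564 FPKM, and Scn4b, at 0.187 to 1.31 FPKM, were both highest in 5xFAD-3.

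The extremes of many members fell in the same few libraries. Normal-22 was the highest library for 9 of the 21 tested members and the lowest for 0. Normal-11 was highest for 5, 5xFAD-21 lowest for 5 and 5xFAD-2 lowest for 4. Shares over all genes are not given beside these counts, so they describe the libraries as much as the members. The median deviation of the 21 members from their own means was 0.45 on the log2 scale in Normal-22 and 0.20 in Normal-23, −0.09 in Normal-11 and −0.11 in Normal-21, and from −0.37 in 5xFAD-2 to 0.09 in 5xFAD-1 and 5xFAD-3 among 5xFAD libraries. Normal-22 also had the highest mean deviation of the pinealocyte markers, 0.50.

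**Figure D5:**
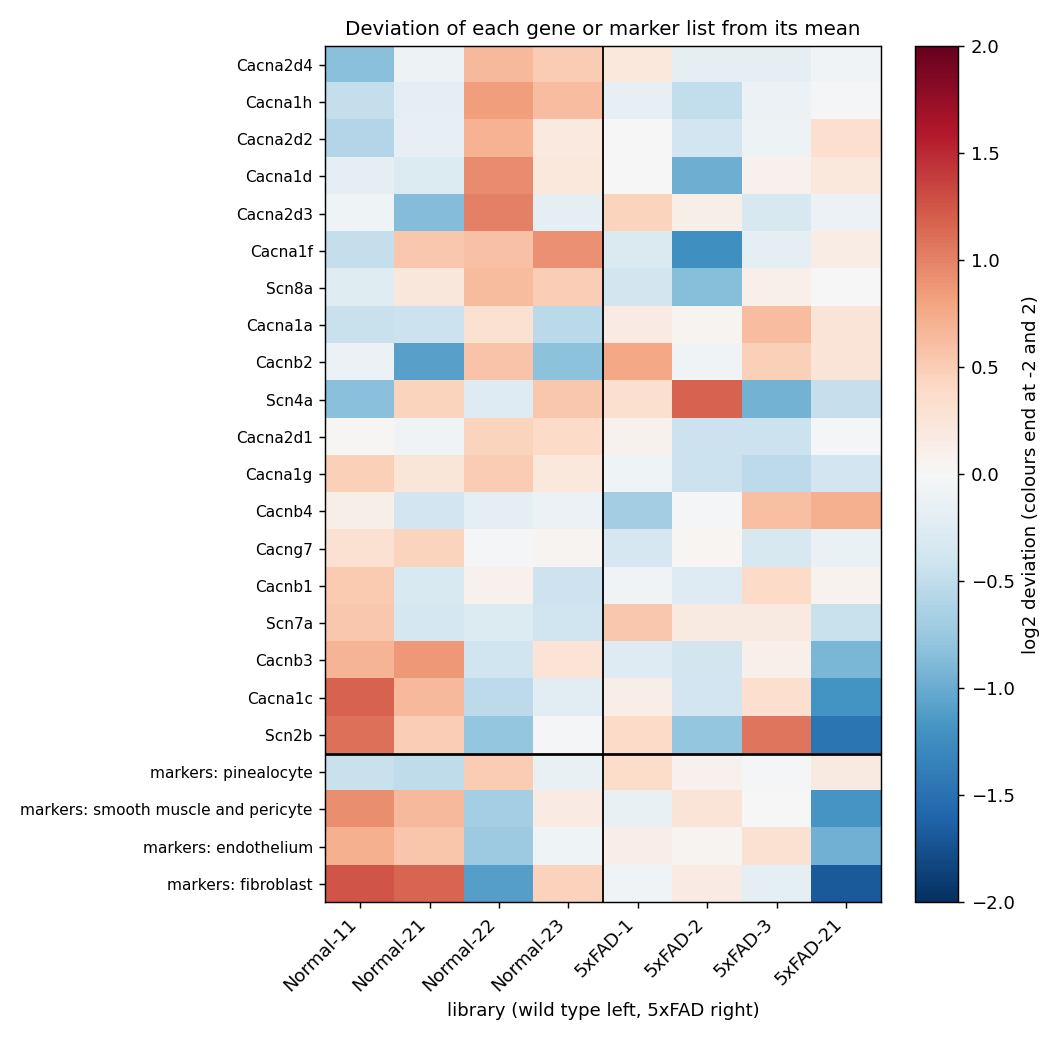
Log2 deviation of 19 of the 21 tested members, each from its own mean, by library, wild type left and 5xFAD right. Below them are mean deviations of the pinealocyte, smooth muscle and pericyte, endothelium and fibroblast marker lists. Other marker lists are not drawn. Members such as Cacna1h, Cacna1d and Cacna2d4 are high in Normal-22, at deviations of 0.84, 0.94 and 0.65. Scn2b and Cacna1c are high in Normal-11, at 1.1 and 1.19, and low in 5xFAD-21, and Scn2b is also high in 5xFAD-3, at 1.08.

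Members with pinealocyte markers as a term gave more differences. In that fit 6 of 21 were lower in 5xFAD at an unadjusted p under 0.05 by limma, beside 4.03% of all genes, and 0 were higher. They were Cacna1d, Cacna1f, Cacna1g, Cacna1h, Cacna2d1 and Scn8a, and 0 passed an adjusted p of 0.05. With smooth muscle and pericyte markers as a term Cacna2d2 joined these 6, beside 5.53% of all genes lower. The choice of these fits came after the values were seen, and the marker level was itself measured on the same libraries.

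Long transcripts made up most of the group. Of the 21 tested members 14 were among the 2617 genes with the longest exonic length, 7753 nt or more, and the median log2 fold change of those genes was −0.08, beside 0.07 in the 2618 with the shortest. After removal of the trend on length in each library Cacna1g stood at −0.66 and the members' median at −0.27, and after removal of the trend on GC content they stood at −0.64 and −0.31.

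Other genes of calcium and sodium handling were taken from lists, and 0 passed an adjusted p of 0.05 by limma in any of them. Their counts below are at an unadjusted p under 0.05, which 3.33% of all genes tested passed as lower and 4.57% as higher. Of 12 tested proteins that bind calcium channels, 1 was higher and 0 lower. Gem, a small GTPase that binds beta subunits and lowers calcium current, had 9.04, 6.61, 20.4 and 11.6 FPKM in wild type and 26.3, 24.5, 23.7 and 32.1 FPKM in the 5xFAD libraries. Every 5xFAD library lay above every wild type library, with a log2 fold change of 1.27 (SE 0.30, limma adjusted p = 0.526). The median of that list was 0.04.

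Of 18 tested genes of calcium release, pumps and exchangers 1 was lower and 1 higher. These were 2 sodium-calcium exchangers, Slc8a3 at −0.86 (limma adjusted p = 0.575) and Slc8a1 at 0.96 (adjusted p = 0.609). Slc8a3 had 21.1, 47.1, 40.5 and 56.4 FPKM in wild type and 26.3, 20.01, 18.6 and 21.1 FPKM in the 5xFAD libraries, with Normal-11 among the 5xFAD libraries as for Cacna1f and Scn8a. Slc8a1 had 12.4, 17.5, 49.1 and 29.6 FPKM in wild type and 57.0, 36.2, 54.6 and 40.0 FPKM in the 5xFAD libraries, with Normal-22 among the 5xFAD libraries. The list's median was −0.16.

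Of 14 tested sodium channel partners 2 were higher and 0 lower, and their median was 0.04. Fgf12, an intracellular FGF that binds sodium channels, had 6.74, 5.33, 14.5 and 8.56 FPKM in wild type and 16.8, 25.8, 14.5 and 17.6 FPKM in the 5xFAD libraries, a log2 fold change of 1.15 (limma adjusted p = 0.545). Sptbn4, a spectrin that anchors channels at the axon initial segment, stood at 0.88. Of 5 tested HCN and CNG channels, cation channels gated by cyclic nucleotides, all 5 lay below 0, beside 51.3% of all genes, with a median of −0.31. Cngb1, a subunit of the rod channel, stood at −0.58, with an unadjusted p of 0.0327, an adjusted p of 0.608 by limma and overlapping groups. Of 38 tested potassium channel genes 24 lay below 0, with a median of −0.11, and Kcnip2, a partner of Kv4 channels, at 1.03, and Kcna5, at 0.89, were higher at an unadjusted p under 0.05.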

How the data were processed

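The authors deposited 1 FPKM value per gene and library. Per the study's methods, total RNA was freed of ribosomal RNA with Ribo-Zero Gold, libraries were made with a TruSeq Stranded kit and sequenced in pairs of 100 cycles, and reads were trimmed with Trimmomatic, aligned with STAR to GRCm38.p6 (mm10) and turned into FPKM with Cuffnorm on GENCODE M17. Tool versions are not given in the sources used here. The table also holds the authors' mean over all 8 libraries, which was not used, and 0 columns were left unmapped to a sample.

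From the FPKM, group means were compared on log2(FPKM + 0.1) in R 4.3.3, using limma 3.58.1 with a two-sided moderated test and a trend on the mean. Protein-coding genes and lncRNAs averaging 1 FPKM or more over all 8 libraries entered, so that a gene low in 1 group was kept. The p-values were adjusted by the Benjamini-Hochberg method over the 13094 protein-coding genes. Permutation tests of single genes were exact, over all 70 assignments of 4 libraries to a group. Of 53710 gene IDs, 53616 matched GENCODE M21, from which positions, lengths and sequences were read with Python 3.11.15. In simulated data of 13094 genes, 66 of 100 genes with a log2 change of 1 and 80 of 100 with a log2 change of 2 were recovered, with 8 false calls. The simulated noise was independent between genes and libraries. It lacked the shifts that many genes share in the real libraries, so these rates need not hold there.

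The members, gene lists, markers and tests were chosen with earlier results of these data known. Of the tested members, 19 are described singly and 2 are not reported here by name, though all counts and medians over the members include them. Also named are the members under the limit that reach 1 FPKM in a library or lead their subfamily, and up to 4 genes per list at an unadjusted p under 0.05. Other members under the limit are accounted for with their levels. Alternatives were pseudocounts of 0.01 and 1, no limit on the mean, a mean of at least 5, values above 0 in every library, 3 scalings, unread bases (low or high share) as a term or as separate sets, the replicate number as a block, array weights, a fit without the trend on the mean, removal of trends on length and GC content (lowess span 0.3), a fit of protein-coding genes alone, and leaving out each library. The marker terms and the fit without Normal-22 and 5xFAD-3 were chosen after seeing the data.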

Additional observations from a re-analysis of the deposited data

Results flagged for a closer look

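Among 71 groups of 4 libraries with a member at 0.1 FPKM or more, 7 had 1 library far from the other 3 by Dixon's test. Chance gives about 1 in 20, or 3.55, if values are normal and members independent, and members here shared their extreme libraries. The share flagged over all genes is not given, so the count is not a trait of this family. In the 5xFAD group 5xFAD-3 was far above the others for Scn1a (0.899 FPKM), Cacng3 (0.247 FPKM) and Scn9a (0.167 FPKM). Of the neuron markers, Gad1, Gad2, Nefl, Nefm and Rbfox3 were highest of the 8 libraries in 5xFAD-3. Snap25, Syt1 and Slc17a7 were highest in Normal-22, Slc17a6 in 5xFAD-2 and Nefh in 5xFAD-1. The part of neural tissue in these values was not tested. Scn1a and Scn9a share long runs of coding sequence with other members, so a fragment of one could have been counted for another. 5xFAD-1 was far above the others of its group for Cacna1s (0.739 FPKM). 5xFAD-2 was far below the others of its group for Cacna1e (0.104 FPKM). In the wild type group Normal-22 was far above the others for Cacna1a (1.47 FPKM), the library in which Xist was found, and Normal-11 was far above the others for Scn7a (8.99 FPKM), the library with the most fibroblast and smooth muscle transcript.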

How the results depend on the processing

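No member passed an adjusted p of 0.05 in any of the 28 other fits. Cacna1g stayed below 0 in all 29 alternatives, at −0.82 to −0.61, and at −0.80 to −0.66 with single libraries left out. Where each group kept more than 1 library, its unadjusted p was under 0.05, with a limma adjusted p of 0.0777 (array weights) to 0.986. Its groups did not overlap, which was known when the family was chosen. The sign was therefore fixed for any fit that left libraries out. The p of the exact permutation test, which is among the 29, was fixed too. This tally is thus not independent support. In all, 10 of 21 members kept their sign under every alternative and 11 did not. The cause of these changes was not tested. Replicate numbers did not pair the libraries (correlations of −0.05, 0.23, −0.36 and 0.26 between libraries of the same number), and with a replicate block Cacna1g stood at −0.71, 3 members were lower (2.33% of all genes) and 1 higher (2.96%).

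The count of members lower at an unadjusted p under 0.05, 1 as reported, is given here with the share of all genes lower in the same fit, 3.33% as reported. It was 2 with median-ratio scaling (3.41%), within the sets of low (6.62%) and high (2.06%) unread bases, without a trend (3.38%), with the GC trend removed (3.22%) and without Normal-22 and 5xFAD-3 together (8.45%). It was 3 with quantile normalization (3.2%) or no limit on the mean (3.17%), 4 with unread bases as a term (6.93%), 5 with array weights (6.37%), 6 with the pinealocyte term (4.03%) and 7 with the smooth muscle term (5.53%). With single libraries left out it ran from 1 to 5, with 5 without Normal-11 (3.05%), 4 without 5xFAD-21 (3.67%), 3 without Normal-22 (8.44%) or 5xFAD-3 (3.36%), and 2 without Normal-21 (1.61%) or 5xFAD-1 (2.81%). The count of members higher, 0 as reported (4.57% of all genes), was 1 within the set of low unread bases (5.55%), without a trend (4.25%) and without Normal-22 and 5xFAD-3 together (10.2%), 2 with array weights (7.7%), and 0 to 2 with single libraries left out, with 2 without Normal-22 (9.56%). The members' median ran from −0.34 to −0.14 with single libraries left out and was −0.092 with no limit on the mean.

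Over all genes tested, 436 lower and 598 higher became 220 and 880 with equal protein-coding totals and 908 and 692 with unread bases as a term. Genes past an adjusted p of 0.05 were 91 without Normal-22 and 0 by limma among genes above 0 in every library (431 lower and 593 higher by unadjusted p under 0.05), where 5 were as reported.

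Signs of the members described singly changed as follows. With unread bases as a term Cacna2d2 stood at 0.26, Cacna2d4 at 0.18, Cacnb1 at −0.11 and Scn7a at −0.17. Within the set of low unread bases Cacna2d2 stood at 0.43, Cacna2d4 at 0.78, Cacnb1 at −0.50, Cacnb4 at −0.16, Cacna1h at 0.22 and Scn7a at −0.25. Within the other set Cacna2d2 stood at 0.087, Cacna2d3 at −0.10, Scn4a at −0.71 and Scn7a at −0.10. With the pinealocyte term Cacna2d3 stood at −0.42 and Scn2b at 0.077, and with the smooth muscle term Cacna2d3 stood at −0.18 and Scn2b at 0.19. Array weights put Scn4a at −0.49 and quantile normalization put it at −0.072. Without Normal-22 and 5xFAD-3 together Cacna2d2 stood at 0.17, Cacna2d4 at 0.13 and Cacnb1 at −0.017. With single libraries left out Cacna2d2 ran from −0.28 to 0.15, Cacna2d3 from −0.22 to 0.41, Cacna2d4 from −0.40 to 0.090, Cacnb1 from −0.065 to 0.25, Scn2b from −0.82 to 0.032 and Scn4a from −0.22 to 0.37.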
